A study of Rattus norvegicus with 22 samples.

Results

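The 10 genes described here encode enzymes of arginine, nitric oxide and polyamine metabolism and 1 arginine transporter: Slc7a2, Nos1, Nos2, Nos3, Ass1, Asl, Arg1, Arg2, Odc1 and Sat1. They were found among the 26583 gene names on the array by exact match of the name, with control spots left out and the brightest probe taken for each gene over all 22 arrays. All 10 were present, and Nos1 was the only one with a second probe.

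Total RNA came from the tongue of 11 male F344 rats, about 33 weeks of age, that had drunk water with 20 ppm 4-nitroquinoline-1-oxide (4-NQO), a carcinogen that forms bulky DNA adducts, for 10 weeks. Each rat gave 1 piece of oral squamous cell carcinoma (OSCC) and 1 piece of adjacent, phenotypically normal tongue, taken 23 to 26 weeks after the first exposure, so that both groups carry the carcinogen exposure and neither is an unexposed tongue. The deposited labels conflict with this, since all 22 titles carry the word untreated and the normal pieces are labelled as having had no treatment (0 ppm), while the protocol and the study's methods take both tissues from the same exposed rats. Rats are named below by their animal numbers (4, 9, 11, 13, 16, 17, 21, 22, 24, 25 and 26).

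L-arginine enters cells through cationic amino acid transporters and is then used by competing enzymes. Nitric oxide synthases turn it into nitric oxide and citrulline, which argininosuccinate synthase and argininosuccinate lyase turn back into arginine. Arginases split it into urea and ornithine, and ornithine decarboxylase turns ornithine into putrescine, the first of the polyamines that dividing cells need. In inflamed and wounded tissue, the inducible synthase and arginase 1 are known from macrophages and neutrophils, and arginase 1 is also made by some epithelia.

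A value below is the log2 signal of a probe relative to the 75th percentile of its array, and a difference is OSCC minus normal within a rat. The tissues were tested in limma with a term for each rat, and a gene counts as called where it differed 2-fold or more with an adjusted p under 0.05. A probe counted as well above background on an array when the scanner software said so for at least 50% of its spots. Positions are those of the rn4 assembly in the array annotation, which gives the gene of a probe but not the exon or untranslated region it lies in. Where no normal array had a probe well above background, the fold was taken against the dimmest signals that were, and is given as a lower limit where that limit was above 1. Where the probes of a gene named below disagree, both are given.

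The arrays differed in brightness and in their content of muscle genes. The 75th percentile of the signal ran from 237 to 655 on normal arrays and from 339 to 1414 on OSCC arrays, and it was higher in the OSCC of 7 rats and lower in that of 4 (17, 21, 22 and 24). The OSCC of rats 21, 22 and 24 stood apart: in these 3 pairs alone the summed signal of 10 skeletal muscle genes was higher in the OSCC than in the normal tissue, by 1.02, 0.21 and 0.80 on the log2 scale, and in the other 8 pairs it was lower. All 11 normal arrays and the OSCC arrays of rats 4 and 9 were scanned on the first of 2 days, and the other 9 OSCC arrays on the second. Normal tissue lay on 3 slides and OSCC on 4 others, so that slide and tissue cannot be told apart.

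OSCC had higher signal than paired normal tongue for 6 of the 10 genes: Slc7a2, Nos2, Arg1, Arg2, Odc1 and Sat1. The other 4, Nos1, Nos3, Ass1 and Asl, were not called, and none of the 10 was called lower. Over the whole array 13.8% of 30367 probes were called, 6.86% higher and 6.97% lower. The median difference of the 10 genes was 1.32, against -0.24 over all probes. The ranges of the tissues overlapped for each of the 10, as they did for nearly all probes (1.65% did not overlap). In pieces of whole tissue, fewer cells of a type and less RNA per cell cannot be told apart.

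**Figure D1:**
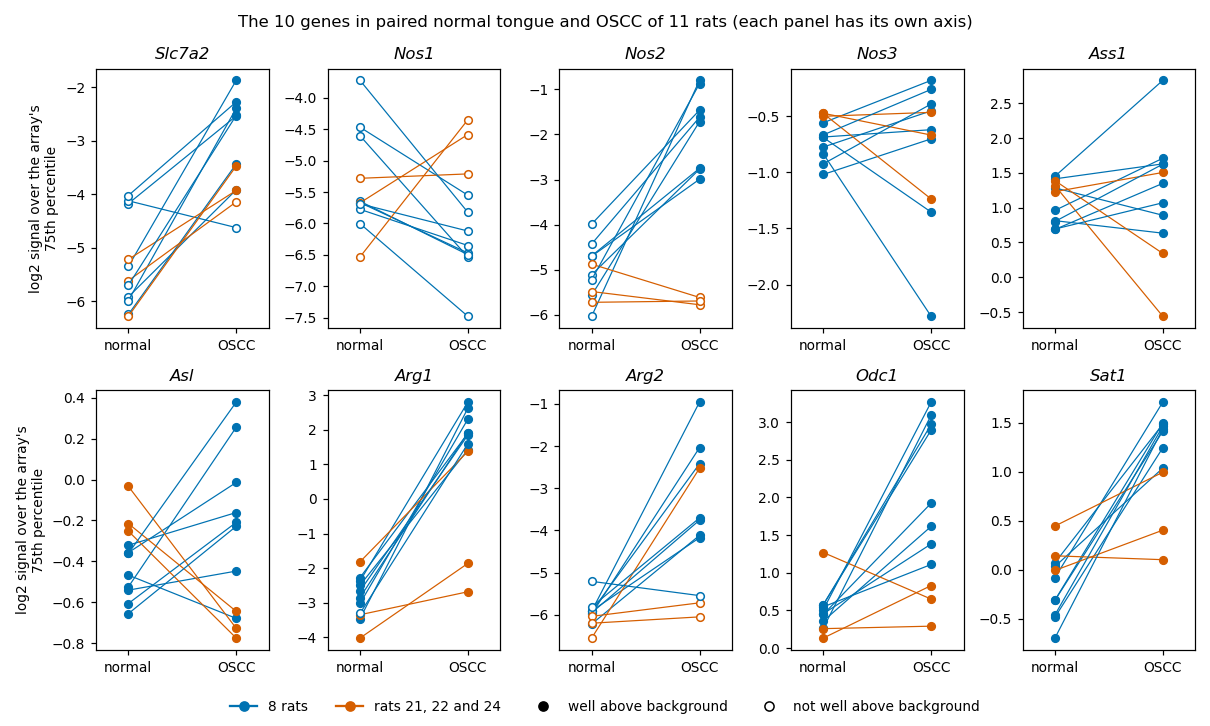
Signal of the 10 genes in normal tongue and OSCC of each rat, as log2 over the array's 75th percentile, with a line for each of 11 rats, open circles where the probe was not well above background and rats 21, 22 and 24 in orange. Nos2, Arg2 and Slc7a2 were open on all 11 normal arrays, and the lines of Arg1 rose in all 11 rats.

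The calls rested on pairs in which tissue and scan day mostly changed together. Within the 2 pairs scanned on 1 day, rats 4 and 9, the mean differences were 2.41 for Slc7a2, 2.14 for Nos2, 4.34 for Arg1, 3.02 for Arg2, 1.62 for Odc1 and 1.76 for Sat1, each in the direction found over 11 pairs. With scan day as a further term the limma estimates equal these means, and their adjusted p ran from 0.0855 for Arg1, Slc7a2 and Sat1 to 0.237 for Nos2, so that 0 of the 10 genes were called. At an unadjusted p below 0.05 and 2-fold, that fit counted 5 of 10 genes, beside 31.5% of all probes. In the 9 pairs scanned on different days, where tissue and day cannot be told apart, all 6 genes were called. Normexp background correction is a model of background, here with an offset of 50, that draws dim signals together. With it Arg1 and Sat1 were called and Slc7a2, Nos2, Arg2 and Odc1 were not (limma adjusted p = 0.243, 0.126, 0.959 and 0.0589). Odc1 was not a dim gene, being well above background on every array, and its difference there was 1.06. At the adjusted p alone, without the fold limit, the same 6 of 10 passed, beside 44% of all probes.

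Slc7a2 encodes the cationic amino acid transporter CAT2, which carries arginine into cells and is known to be induced together with Nos2 and arginase 1 in activated macrophages. Its probe lies at chr16:54752462-54752521 on the minus strand, and its first 30 of 60 bases are shown, 5′ to 3′, because the measurement rests on them.
Slc7a2 probe: atcaccaaagaaacctcagcttgcctttca
In normal tongue its values ran from -6.28 through a median of -5.61 to -4.02, and none of the 11 arrays was well above background. In OSCC they ran from -4.62 through -3.43 to -1.87 and were well above background on 9 arrays, all but those of rats 17 and 21. The mean difference was 2.14 ± 0.33 (SE, n = 11 pairs, limma adjusted p = 0.0007), higher in 10 of 11 pairs and at least 1.63-fold. The exception was rat 17 at -0.50, where neither tissue was well above background. Rats 11 and 13 had the largest differences, 3.48 and 3.59. Unlike Nos2, Slc7a2 was also higher in the OSCC of rats 22 and 24, by 1.29 and 2.81. In rat 21 its difference was 1.47, with neither tissue well above background.

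Of the nitric oxide synthases, the inducible form rose while neither constitutive form was called. Nos2 encodes inducible nitric oxide synthase, which is transcribed on inflammatory stimulation and makes nitric oxide at a high, sustained rate. Normal values ran from -6.03 through -5.11 to -3.99, all not well above background. OSCC values ran from -5.77 through -2.75 to -0.80, and 8 of 11 OSCC arrays were well above background. Those 8 held every rat except 21, 22 and 24, whose OSCC values of -5.77, -5.61 and -5.69 lay within the range of normal tongue. The mean difference was 2.16 ± 0.52 (SE, n = 11, limma adjusted p = 0.00722), higher in 9 of 11 pairs and at least 1.97-fold. The largest differences were those of rats 11 (5.23), 26 (4.34) and 13 (3.84). Without rats 21, 22 and 24 the difference was 3.09.

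Nos3 encodes endothelial nitric oxide synthase, which acts in the lining of blood vessels. It was well above background on all 22 arrays, at -1.02 to -0.47 in normal tongue (median -0.69) and -2.28 to -0.18 in OSCC (median -0.62). The difference of -0.09 ± 0.18 (SE, n = 11, limma adjusted p = 0.691) had a 95% interval of -0.49 to 0.31, with 7 pairs higher and 4 lower. Rat 17 was lowest, at -1.45, and without it the mean was 0.04. Of 8 endothelial marker genes, all measured in normal tongue, none was called, with a median difference of -0.40. By the adjusted p alone, without the fold limit, 4 of the 8 were lower and none higher. Their summed signals were 3.63 to 4.18 in normal tongue and 2.36 to 4.21 in OSCC, and higher in the OSCC of 1 rat.

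Nos1 encodes neuronal nitric oxide synthase, which in skeletal muscle is anchored at the fibre membrane. On none of the 22 arrays was either of its probes well above background, so these data hold no measured level of it in either tissue. Its difference of -0.54 ± 0.35 (SE, limma adjusted p = 0.215) was not called, and the second probe, at -0.70 (limma adjusted p = 0.0213), was short of 2-fold. Nos1 was the only member called when rats 21, 22 and 24 were left out that was not called with them (-1.15, limma adjusted p = 0.00152), on signals that remained at background.

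Changes of the synthases were also set against each other within rats. The change of Nos2 exceeded that of Nos3 by 2.25 ± 1.69 (SD, n = 11), in 9 of 11 rats (two-sided exact sign-flip permutation test, p = 0.00586, adjusted p = 0.0205 over 6 comparisons of members). The normal signal of Nos2 was at background, so that its change is measured from that floor, and the difference was 0.67 with normexp background correction (exact adjusted p = 0.0508) and 2.21 in the 9 pairs scanned on different days (exact adjusted p = 0.0703). Changes were also compared with that of Nos1, but nothing is read from those comparisons, since Nos1 was at background on all 22 arrays.

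**Figure D2:**
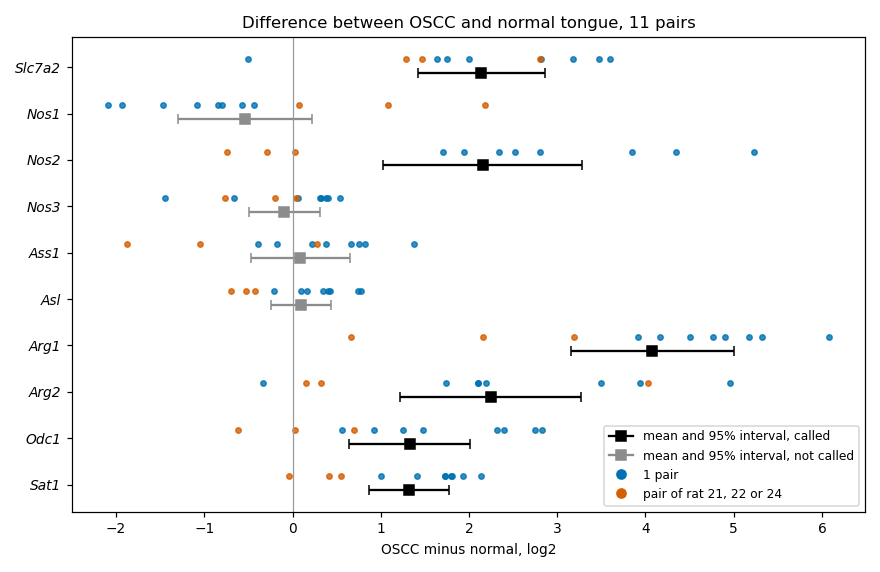
Difference between OSCC and normal tongue on the log2 scale for each gene, with the mean and its 95% interval over 11 pairs as squares (black where called, grey where not) and each pair as a point (orange for rats 21, 22 and 24). Arg1 had the largest mean, 4.08, and the intervals of Nos1, Nos3, Ass1 and Asl include 0.

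The citrulline-recycling pair was not called. Ass1 encodes argininosuccinate synthase, the step that joins citrulline to aspartate, and Asl the lyase that releases arginine from the product. Ass1 was well above background everywhere, at 0.69 to 1.45 in normal tongue (median 1.23) and -0.56 to 2.83 in OSCC (median 1.35), a difference of 0.09 ± 0.26 (SE, limma adjusted p = 0.788). Its OSCC values were far more scattered than its normal values, with an SD of 0.88 against 0.30, and its differences ran from -1.88 in rat 24 to 1.38 in rat 13. Asl stayed within a narrow band, from -0.66 to -0.03 in normal tongue (median -0.36) and from -0.77 to 0.38 in OSCC (median -0.23), with a difference of 0.10 ± 0.16 (SE, limma adjusted p = 0.613). Both mean differences are small enough that their sign turned with the scaling, to -0.11 for Ass1 and -0.10 for Asl with arrays scaled to their median. The change of Ass1 and that of Asl had a mean difference of -0.01 ± 0.68 (SD, n = 11, exact sign-flip adjusted p = 0.966).

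Arg1 had the largest difference of the members measured in both tissues. It encodes the cytosolic arginase 1, the enzyme of the urea cycle in liver, also made by alternatively activated macrophages and by neutrophils in some species. Its probe lies at chr1:21011150-21011209 on the plus strand, and its first 30 bases follow, shown because this is the largest difference measured on both sides. The folds of Slc7a2, Nos2 and Arg2 are lower limits and cannot be ranked with it.
Arg1 probe: aggagttaaaatacacagtgatgtcaagtg
Normal values ran from -4.02 through -2.85 to -1.82 and were well above background on 10 of 11 arrays. OSCC values ran from -2.68 through 1.85 to 2.80, well above background on all 11. The difference was 4.08 ± 0.43 (SE, n = 11, limma adjusted p = 0.000124), a 16.9-fold rise present in 11 of 11 pairs. In 9 OSCC the value was 1.37 or more, above every normal value, and the 2 OSCC that overlapped normal tongue were those of rats 21 (-1.86) and 22 (-2.68). Rat 11 had the largest difference, 6.08, and rat 22 the smallest, 0.66. Without rats 21, 22 and 24 the mean was 4.85.

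Arg2 encodes arginase 2, the mitochondrial form, which is found in many tissues outside the liver. Its 60-base probe lies at chr6:101927878-101927937 on the plus strand, shown whole for comparison with the probe of Arg1.
Arg2 probe: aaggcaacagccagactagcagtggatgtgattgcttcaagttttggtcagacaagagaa
Normal values lay between -6.55 and -5.21 (median -5.95), with no array well above background. OSCC values ran from -6.05 through -3.76 to -0.96, well above background on 8 of 11, all but those of rats 21, 22 and 26. The difference was 2.24 ± 0.47 (SE, n = 11, limma adjusted p = 0.00337), higher in 10 of 11 pairs and at least 1.13-fold. The rats that led were not those that led for Nos2: rat 17 (4.95), rat 24 (4.02) and rat 9 (3.94) had the largest Arg2 differences, and rat 26, with the second largest Nos2 difference, was at -0.34.

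Within rats the measured change of Arg1 exceeded that of Arg2 by 1.83 ± 1.84 (SD, n = 11), in 10 of 11 rats (two-sided exact sign-flip test, p = 0.00684, adjusted p = 0.0205). The normal signal of Arg2 was at background, so its own change is measured only from that floor. Rat 24 was the exception. In the 9 pairs scanned on different days the difference was 1.95 (exact adjusted p = 0.0703).

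Odc1 and Sat1 act on opposite sides of the polyamine pool. Odc1 encodes ornithine decarboxylase, the first step of polyamine synthesis and a known target of the transcription factor Myc. Its probe lies at chr6:41315531-41315590 on the plus strand and starts with the following bases.
Odc1 probe: tctgtacagcatcaatgtgcttagcccatc
Odc1 was well above background on all 22 arrays, at 0.13 to 1.27 in normal tongue (median 0.46) and 0.29 to 3.26 in OSCC (median 1.62). The difference was 1.33 ± 0.32 (SE, n = 11, limma adjusted p = 0.00663), a 2.51-fold rise with 10 of 11 pairs higher. In OSCC, 4 rats (4, 11, 13 and 25) lay between 2.89 and 3.26 and the other 7 at or below 1.92. Rat 24 went the other way, at -0.62, with the highest of the 11 normal values (1.27).

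Sat1 encodes spermidine/spermine N1-acetyltransferase, which acetylates polyamines for breakdown or export and is itself induced when polyamines are high. Its probe lies at chrX:61637834-61637893 on the plus strand and is shown whole.
Sat1 probe: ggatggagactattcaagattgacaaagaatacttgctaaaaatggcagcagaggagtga
Sat1 ran from -0.70 to 0.45 in normal tongue (median -0.08) and from 0.10 to 1.71 in OSCC (median 1.41), well above background on all 22 arrays. The difference was 1.31 ± 0.21 (SE, n = 11, limma adjusted p = 0.000788), a 2.49-fold rise. Of the pairs, 10 of 11 were higher, 8 of them by 1.00 to 2.14, and rat 22 was at -0.04. The 3 smallest differences were those of rats 21, 22 and 24.

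Odc1 and Sat1 rose by nearly the same amount, with changes that differed by 0.01 ± 0.90 (SD, n = 11, exact sign-flip adjusted p = 0.966), and the sign of that difference turned under several settings. The spread allows differences in single rats, from -1.58 in rat 26 to 1.41 in rat 13. Their promoters are shown because both genes rose, as the 250 bases before the RefSeq start in the GRCr8 assembly, with capitals for GGGCGG on either strand, a motif bound by Sp1 family factors. The Odc1 promoter is chr6:46058415-46058664 (+), and that of Sat1 is chrX:44007839-44008088 (+).
Odc1 promoter: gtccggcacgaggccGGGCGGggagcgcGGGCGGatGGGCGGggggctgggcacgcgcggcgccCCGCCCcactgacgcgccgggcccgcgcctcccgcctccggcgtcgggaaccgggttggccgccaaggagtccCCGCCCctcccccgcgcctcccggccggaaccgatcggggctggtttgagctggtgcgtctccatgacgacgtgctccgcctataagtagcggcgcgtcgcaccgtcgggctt
Sat1 promoter: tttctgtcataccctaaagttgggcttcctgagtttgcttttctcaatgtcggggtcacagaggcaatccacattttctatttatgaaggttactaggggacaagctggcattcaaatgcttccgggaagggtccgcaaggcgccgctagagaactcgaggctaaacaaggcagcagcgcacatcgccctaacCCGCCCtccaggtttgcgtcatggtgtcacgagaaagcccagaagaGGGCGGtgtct
Odc1 held 5 such matches and Sat1 2. The promoters of Asl, Nos1 and Nos3, which were not called, held 1 each and that of Ass1 none, and 30.5% of 33469 promoters of this length held at least 1. The letters TATAAA (12.9% of promoters), CCAAT (34%), CACGTG (5.59%) and TGACGTCA (1.59%), searched on both strands, were in neither window. Promoters were matched by symbol for 6 of the 10 genes, and those of Slc7a2, Nos2, Arg1 and Arg2 are not shown.

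Across rats, the members did not all vary together. Pooled correlations of their differences were computed for 28 of the 45 pairs of members. The others all involved Nos3 or Slc7a2, where the widest gap between rats was over 30% of the range. For both genes, rat 17 (-1.45 and -0.50) lay alone below that gap. Of the 28, 6 passed an adjusted p of 0.05 over 45. The strongest was that of Nos2 with Arg1, at r = 0.884 (permutation p = 0.0001, adjusted p = 0.0045, n = 11 rats) and rho = 0.809 (permutation p = 0.00394, adjusted p = 0.0591). Without the 2 rats farthest from the Nos2 median r was 0.825. In the 8 rats other than 21, 22 and 24, r was 0.689 (exact permutation p = 0.0588) and rho 0.5 (exact p = 0.216), so that the relation did not pass without those 3 rats. In the 9 pairs scanned on different days r was 0.889.

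**Figure D3:**
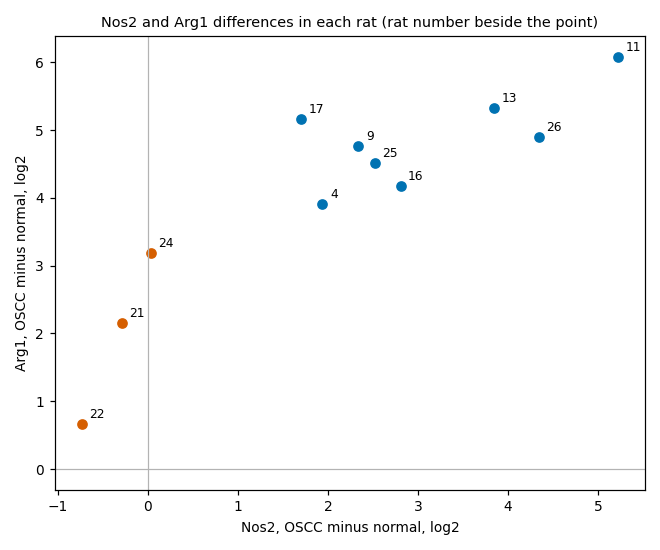
Difference between OSCC and normal tongue on the log2 scale for Nos2 (horizontal) and Arg1 (vertical), 1 point per rat with its number, rats 21, 22 and 24 in orange. Rat 22 was lowest on both axes (-0.74 and 0.66) and rat 11 highest (5.23 and 6.08), over 11 rats with r = 0.884.

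Of the other relations past the threshold, that of Nos1 with Sat1 is not described, since Nos1 was at background on all arrays. The remaining 4 were those of Nos2 with Asl (r = 0.883, rho = 0.891, r = 0.841 without the 2 farthest rats), Nos2 with Sat1 (r = 0.853, rho = 0.791, 0.839 without them), Asl with Sat1 (r = 0.876, rho = 0.864, 0.811 without them) and Arg1 with Sat1 (r = 0.788, rho = 0.555, 0.415 without them). Their permutation p for r were 0.00056, 0.0009, 0.00053 and 0.00458 (adjusted p 0.0084, 0.0101, 0.0084 and 0.0343). For rho they were 0.00058, 0.00553, 0.00108 and 0.0814 (adjusted p 0.0243, 0.0622, 0.0243 and 0.281). In the 8 rats other than 21, 22 and 24, r in the same order was 0.682, 0.42, 0.676 and -0.233 (exact permutation p = 0.0662, 0.308, 0.0648 and 0.576), and rho was 0.81, 0.476, 0.714 and -0.143 (exact permutation p = 0.0218, 0.243, 0.0576 and 0.752). None of these r passed without those 3 rats, and among the 8 the largest gap was 31.5% to 36.2% of the range, over the limit set for pooling, also for Nos2 with Arg1. All members of a rat share the same 2 arrays and their scaling, and the brightness of those arrays moved too: the log2 ratio of the 75th percentiles, OSCC over normal, was -0.42 to -0.14 in rats 17, 21, 22 and 24 and 0.62 to 1.83 in the other 7. Its part in these relations was not tested. With arrays scaled to their median 0 relations passed, and with quantile normalization 1 did, counting only those that could be pooled there. Arg2 and Nos2 had no relation past the threshold (r = -0.013, rho = -0.109, permutation p = 0.971 and 0.756, adjusted p = 1 and 1).

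**Figure D4:**
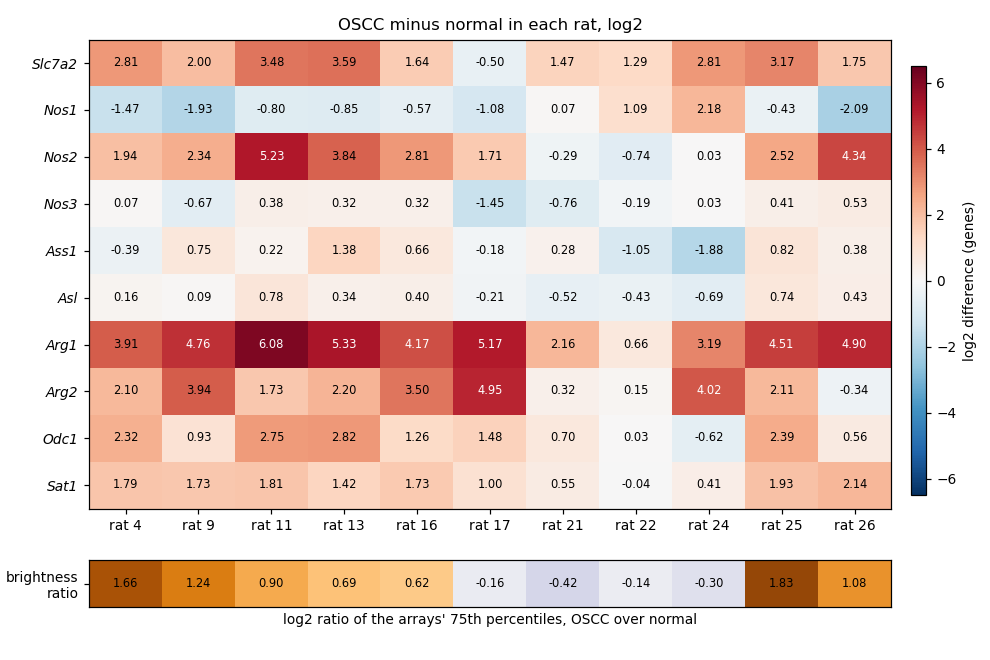
Difference between OSCC and normal tongue on the log2 scale for each gene (rows) and rat (columns), red where OSCC was higher, with the log2 ratio of the arrays' 75th percentiles in the strip below. Arg1 was above 0 in each of 11 rats, and Nos2 was at -0.29, -0.74 and 0.03 in rats 21, 22 and 24.

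The genes whose pattern over rats was most like that of each member were listed as a description, as the highest r of differences over 11 rats among genes well above background on at least 11 of 22 arrays. For Nos2 they were Il4ra, the interleukin 4 receptor subunit (r = 0.962), Timp2, an inhibitor of metalloproteinases (0.954), and Gla, a lysosomal galactosidase (0.947). For Arg1 they were Pbx3 (0.937), Cd82 (0.936) and Tmem87b (0.936). For Arg2 they were Mapk9 (0.953), a transcript without a gene symbol and Man1a1 (0.938), and for Odc1 Mbd2 (0.921), Sstr2 (0.91) and a probe without a gene name. For Slc7a2 they included Bnip2 (0.969) and Cd48, a leukocyte surface protein (0.955). For Sat1 they were Mlkl, the effector of necroptosis (0.982), the chemokine Cxcl16 (0.977) and Sbno2 (0.976). For the members not called they were Mfng, Tmem88 and Mknk1 (Nos3), Chek1, Luc7l and Cebpg (Ass1) and Cklf, Ifitm2 and Rabl5 (Asl), at 0.949 to 0.989.

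Around the members, 58 other genes of these pathways were listed, of which 56 were on the array. In OSCC 8 were called higher and 5 lower, and 43 were not called, with a median difference of -0.15. That is 13 of 56 by the brightest probe of each gene, a larger share than the 4201 of 30367 probes (13.8%) called over the array. The array share also takes in dim probes and further probes of a gene. Without rats 21, 22 and 24 the count of these pathway genes was 16. With normexp background correction 6 were still called (Gch1, Cav3, Oaz2, Mtap, Aldh18a1 and Pycr1) and Nostrin turned to -0.10, and with arrays scaled to their median Ddah1, Nostrin and Atp13a3 were not called. Nostrin and Oaz2 were not called with quantile normalization.

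Among transporters, Slc7a7, the y+LAT1 subunit that exchanges arginine for neutral amino acids, rose by 2.59 (SE 0.29, limma adjusted p = 0.00017), in 11 of 11 pairs. The main constitutive arginine carrier, Slc7a1, was at -0.04 (limma adjusted p = 0.913) by its brighter probe and at 0.82 (limma adjusted p = 0.0213) by a dimmer one that was well above background on 2 normal arrays, neither called, and Slc3a2, the heavy chain that Slc7a7 needs, was at 0.53 and under 2-fold. Rat 22 had the smallest difference of Slc7a7, 0.71.

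Among genes that act on nitric oxide synthases, Gch1 rose the most, by 2.56 (SE 0.32, limma adjusted p = 0.000275), in 11 of 11 pairs. It encodes GTP cyclohydrolase, the first and limiting step of the synthesis of tetrahydrobiopterin, without which the synthases cannot make nitric oxide. The later steps Pts and Spr were at 0.09 and -0.51, and the recycling enzyme Qdpr at -0.67, none of them called. Ddah1, which degrades methylarginine inhibitors of the synthases, rose by 1.00 in 11 of 11 pairs (limma adjusted p = 0.0018), at the edge of 2-fold, and its value was 0.88 to 1.07 with 1 rat left out and under 1 in the fits that left out rat 11, 16, 17, 24, 25 or 26. Its paralogue Ddah2 was at -0.76. Cav3, the muscle caveolin that binds the synthases, fell by 1.83 in 11 of 11 pairs (limma adjusted p = 0.00119), beside skeletal muscle markers of which 6 of 10 fell and 1 rose, with summed signals of 10.1 to 11.1 in normal tongue and 6.24 to 11.6 in OSCC. The part of muscle content in that fall was not tested. Nostrin, a trafficking partner of Nos3, was called higher at 1.14 (at least 1.01-fold), but not in 7 of the 11 fits with 1 rat left out (rats 4, 9, 11, 13, 16, 17 or 25), which gave values of 0.86 to 1.33.

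Downstream of nitric oxide, 2 of 6 genes of cyclic GMP signalling fell and none rose, beside 6.97% of all probes called lower. Gucy1a2 and Prkg2 were not well above background on any of the 22 arrays, so no level of them was measured. Gucy1a3, a subunit of the soluble guanylate cyclase that senses nitric oxide, fell by 1.76 (limma adjusted p = 0.00244), lower in 10 of 11 pairs, by its brighter probe. Its second probe, at -0.73 (limma adjusted p = 0.0714), was not called. Prkg1, a kinase that cyclic GMP activates in smooth muscle, fell by 1.67 (limma adjusted p = 0.0148), lower in 9 of 11, and was well above background on 3 of 11 OSCC arrays. With normexp background correction Gucy1a3 was at -0.61 and Prkg1 at -0.62, neither called, and Prkg1 was also not called in the 9 pairs scanned on different days. The partner subunit Gucy1b3 was at -0.22 and the phosphodiesterase Pde5a at -0.05, neither called. In rat 24 Gucy1a3 and Prkg1 were both higher in OSCC, Gucy1a3 by 1.06. Of 6 smooth muscle markers 2 were called lower and none higher, with summed signals of 4.59 to 5.52 in normal tongue and 3.91 to 5.47 in OSCC, and the part of smooth muscle content in these falls was not tested.

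**Figure D5:**
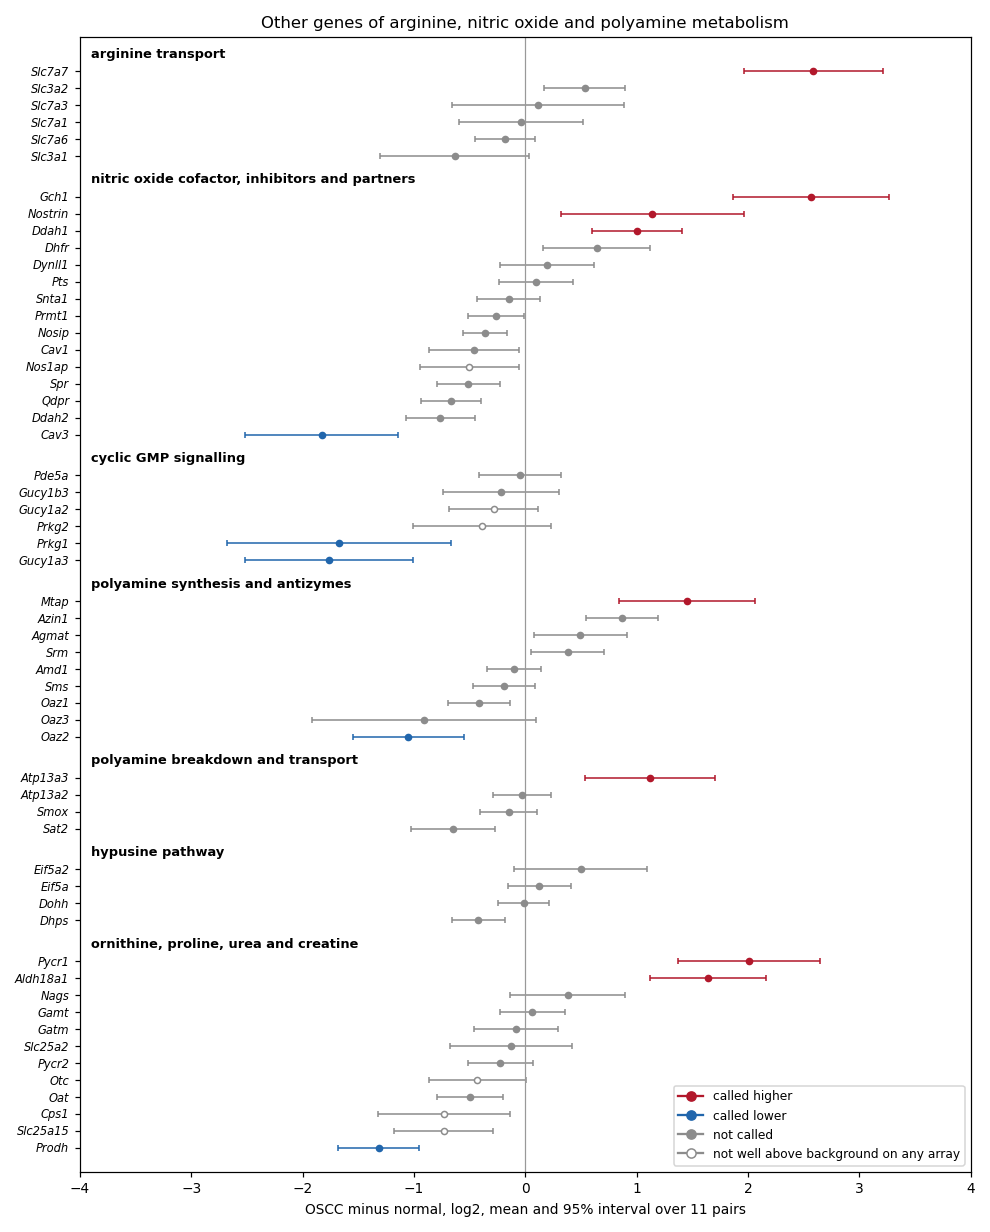
Difference between OSCC and normal tongue on the log2 scale for 56 other genes by pathway, with the mean and 95% interval over 11 pairs, red where called higher, blue where called lower and open where all 22 arrays were at background. Slc7a7 and Gch1 had the largest rises, 2.59 and 2.56, and Cav3 the largest fall, 1.83.

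Of 9 genes of polyamine synthesis and its antizymes 1 rose and 1 fell. Mtap, which salvages the methylthioadenosine left over from polyamine synthesis, rose by 1.45 (SE 0.28, limma adjusted p = 0.00219) in 10 of 11 pairs. Oaz2, an antizyme that marks ornithine decarboxylase for degradation, fell by 1.05 (limma adjusted p = 0.00407), lower in 9 of 11 pairs, but its fall was under 2-fold without rat 9, 11, 13 or 26, the smallest being -0.98, and its second probe was at -0.57 (limma adjusted p = 0.0646). Azin1, an inhibitor of the antizymes, was at 0.87 in the same test (limma adjusted p = 0.00113), short of 2-fold, and Oaz1 was at -0.42. Spermidine synthase (Srm), spermine synthase (Sms) and the decarboxylase Amd1 were at 0.38, -0.19 and -0.10 and were not called. Of the genes for breakdown and transport, Atp13a3, a polyamine transporter, was called higher (limma adjusted p = 0.00729) in 10 of 11 pairs but not without rat 13. It was not well above background in any normal tissue and its lower limit was not above 1, so no fold is given, while Smox and Sat2, a relative of Sat1, were at -0.15 and -0.65. None of the 4 hypusine pathway genes, through which spermidine modifies the translation factor eIF5A, was called.

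Ornithine can also be exchanged with proline, and there the synthesis genes rose. Aldh18a1, the first enzyme from glutamate toward proline and ornithine, rose by 1.64 (SE 0.24, limma adjusted p = 0.000545), and Pycr1, which completes proline, rose by 2.01 (SE 0.29, limma adjusted p = 0.000531), each in 11 of 11 pairs. The ranges of Pycr1 did not overlap, at -0.55 to 0.04 in normal tongue and 0.16 to 3.95 in OSCC. A second Pycr1 probe was at background on all normal arrays and was not called. Prodh, which breaks proline down, fell by 1.32 (SE 0.17, limma adjusted p = 0.000301) in 11 of 11 pairs by its brighter probe. Its second probe did not show this, at -0.09 (limma adjusted p = 0.72) with 7 of 11 pairs higher. Oat, the aminotransferase that links ornithine and proline, was at -0.49 (limma adjusted p = 0.0145) and under 2-fold. The urea cycle genes Otc and Cps1 stayed at background on all 22 arrays.

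Many markers of leukocytes were also called higher in OSCC. Of 8 neutrophil genes 6 were called higher and none lower, with summed signals of 0.13 to 2.39 in normal tongue and 1.00 to 8.64 in OSCC, and Ngp stayed at background on all 22 arrays. Of 10 macrophage genes 7 were called higher and none lower, with sums of 4.00 to 5.23 in normal tongue and 4.42 to 6.21 in OSCC. The neutrophil sum was higher in OSCC in 10 of 11 rats, by 2.93 or more in the 8 rats other than 21, 22 and 24 and by -0.60 to 2.0 in those 3. The macrophage sum was higher in 10 of 11, the exception being rat 17 (-0.37). Normal tongue showed none of 6 B and plasma cell genes well above background, and 4 were called higher in OSCC, with sums higher in 11 of 11 rats. Fibroblast genes were called higher in 6 of 8, and in 3 with normexp. T cell genes were called higher in 4 of 6, but in 1 without rat 9, 11, 13, 25 or 26, in 2 without rat 4 or 16, in 1 with slide as a random block and in 0 with normexp or in the 9 pairs scanned on different days (limma). None of 7 proliferation genes was called, and 3 were called higher without rats 21, 22 and 24, with sums of 1.63 to 2.98 in normal tongue and 0.12 to 4.15 in OSCC. All 8 serous gland genes were called higher, with sums of -0.66 to 1.83 in normal tongue and 2.08 to 12.5 in OSCC, and of 8 squamous epithelium genes 1 was called higher and 1 lower, the higher call being lost without rat 4, 9, 11, 13, 16, 21, 25 or 26. Each of these 8 was well above background on at least 10 of 11 arrays of either tissue. The serous gland sum rose by 12.4, 12.3 and 11.3 in rats 17, 24 and 9, which had the largest Arg2 differences. It also rose by 11.3 in rat 16. It rose by 1.49 in rat 26, where Arg2 was at background in both tissues. Rat 25 had the smallest rise of that sum, 1.02, with an Arg2 difference of 2.11. In rat 4 the sum rose by 10.4, while the Arg2 difference, 2.1, was close to that of rat 25. In rats 11 and 21 it rose by 5.34 and 5.09, with Arg2 differences of 1.73 and 0.32. Arg2 was at background in both tissues of rat 21. The part of these cell types in the changes of Slc7a2, Nos2, Arg1, Arg2, Odc1 and Sat1 was not tested.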

How the data were processed

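RNA of 11 OSCC and 11 paired normal tongue pieces was hybridised to one-color Agilent rat 4x44K arrays. The intensity values are the processed signals that the authors deposited from Agilent Feature Extraction 9.5.3.1, with local background subtracted and spatial trends removed, on a linear scale. The authors also deposited a linear ratio of that signal to the array's 75th percentile, used only as an alternative: 99.6% of its values of 0.5 or more matched the mean signal over that percentile within 2%.

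Control spots and 9196 spots marked as outliers (0.975%) were left out. Each probe took the mean log2 signal of its kept spots, less the array's 75th percentile. Dim probes were kept in, and none was saturated. Tissue was tested in limma 3.58.1 (R 4.3.3) with a term for each rat, adjusting p by Benjamini-Hochberg over 30367 probes. The study's methods name a paired test at the same fold. Arrays are paired because both tissues came from 1 rat. Deviations of paired arrays from their tissue means correlated at -0.21 to 0.24 (median -0.02). For arrays, their number limits the precision, and for dim genes so does signal over background, with 48.4% to 65.5% of probes well above background per array. The fit was also tested on simulated data.

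The members, the pathway and marker lists and the tests were chosen with earlier results of these data known. Named are the members, pathway genes that were called or act at a member's step, markers beside a member, and the 3 nearest genes of each member. Changes of members were compared by exact sign-flip tests over 11 pairs, and correlations used 100000 permutations (all of them for fewer than 10 pairs), both with Benjamini-Hochberg adjustment. A pair of members without a pooled correlation counted as p = 1 in the adjustment over 45. Alternatives covered scaling, background correction, the authors' values, a filter on dim probes, pairing, scan day, slide, the test, the fold limit, the probe and the pairs used. Promoters are from RefSeq, assembly GRCr8.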

Additional observations from a re-analysis of the deposited data

How the results depend on the processing

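The 6 member calls stood under quantile normalization, scaling to the array median or to probes detected on all arrays, and the authors' values. They also stood with slide as a random block, the methods' paired t-test before and after adjustment (4248 and 4002 probes), and without any 1 rat (6 to 6). Other settings kept the 6 calls but could not test them. Dropping the fold limit can only add calls. A filter on dim probes kept Slc7a2, Nos2 and Arg2 through their OSCC arrays alone. In the 9 pairs scanned on different days, tissue and day changed together. Without the pairing (no replicate block) the counts were 6 members, 13 pathway genes and 4227 probes, and no member's call changed. With normexp background correction 2 members (Arg1 and Sat1), 6 pathway genes and 1701 probes were called, and Slc7a2 was at 0.55, Nos2 at 0.71, Arg2 at 0.21 and Odc1 at 1.06 (limma adjusted p = 0.0589). With scan day as a term 0 members, 0 pathway genes and 3 probes were called by limma, while 5, 11 and 9578 passed the fold limit with p below 0.05 before adjustment; the 2 pairs of 1 day give values without a test, so no counts. With no fold limit 26 pathway genes and 13376 probes were called, and without rats 21, 22 and 24 7 members and 6924 probes. Median scaling moved the split of probes from 2083 higher and 2118 lower to 1541 and 3154, and the median of all probes from -0.24 to -0.44 (-0.03 with quantile normalization). Leaving out 1 rat gave 3649 to 4799 probes, 10 to 13 pathway genes, 2 to 3 of 6 comparisons and 0 to 9 correlations (outside 1.5 times the 6 found without rat 11, 13, 17, 21, 22 or 24, at 1, 2, 0, 3, 1 and 0). Comparisons past the threshold fell from 3 to 1 with normexp and to 0 in the 9 pairs, and that of Nos2 with Nos1 was lost in 8 of 11 leave-outs. Correlations numbered 1 with quantile normalization, 0 with median scaling, 1 with normexp, 1 with the authors' values, 2 in the 9 pairs and 0 without rats 21, 22 and 24. Only relations that could be pooled were counted, also with 1 rat left out. Those of Nos2 with Arg1, with Asl and with Sat1 could each be pooled in 9 of 19 alternatives. Their r there was 0.87 to 0.90, 0.86 to 0.95 and 0.83 to 0.90. Without rats 21, 22 and 24 the relations described above had gaps over the pooling limit. Among the members, signs turned only for differences near 0: Nos3 with normexp (0.035) and without rat 17 (-0.15 to 0.043 over all leave-outs), Ass1 with median scaling (-0.11) and without rat 13 (-0.039 to 0.29 over all), and Asl with median scaling (-0.10). So did Ass1 minus Asl with quantile normalization (0.056), normexp (0.0046), without rats 21, 22 and 24 (0.11) and without 1 of 4 rats (4, 11, 22 and 24, -0.11 to 0.11 over all), and Odc1 minus Sat1 with normexp (-0.080) and without 1 of 5 rats (4, 11, 13, 17 and 25, -0.13 to 0.17 over all). Of the pathway genes called, Nostrin turned from 1.14 to -0.10 with normexp. The cause of these shifts was not tested.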
